A study of Mus musculus with 8 samples.

Results

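Intergenic transcription starts near genes were examined as tag clusters of CAGE-seq, an assay that captures the cap of RNA and sequences its 5' end. A tag cluster is a run of nearby start positions on 1 strand, and its dominant TSS is the position with the most tags. The clusters described here had a dominant TSS outside every GENCODE M21 gene on both strands and at most 10 kb from the nearest one. They also lay over 500 bp from every transcript start of the same strand and over 1000 bp from every transcript start of the other strand, and the mitochondrial genome was left out. In wild-type E14 cells 1463 of 32857 clusters met this rule (4.45%, 95% Wilson interval 4.23% to 4.68%). In clone A1 1482 of 33005 did (4.49%) and in clone C7 1442 of 32870 (4.39%).

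E14 is a mouse embryonic stem cell line, grown here with serum and LIF, the cytokine that holds such cells undifferentiated. A1 and C7 are E14 clones that lack both Pwwp2a and Pwwp2b (double knockout, DKO), and each DKO line is 1 clone. Libraries were made from nuclear RNA without PCR, 3 for E14, 2 for A1 and 3 for C7, and were merged within each line before clusters were called. Each line therefore gives 1 value with no replicate error, and an effect of the knockout cannot be told apart from a difference between single clones. The study lists more uniquely mapped reads for the merged E14 set than for either clone, and the part of depth in any difference between lines was not tested. The score column holds 0 throughout, so the results are positions, widths and presence, with no level of transcription. Intervals given below cover counting error only.

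Of the stem cell markers Pou5f1, Nanog, Sox2, Zfp42, Esrrb, Tfcp2l1, Klf4 and Dppa5a, 8 of 8 had a promoter cluster, a dominant TSS within 500 bp of a transcript start of the gene on its strand, in every line. Of 12 markers of differentiated cells 2 did, Sox17 and Sox1, and the other 10, among them Gata4, Gata6, Pax6 and T, had none in any line. Pwwp2a had 1 promoter cluster in each of the 3 lines and Pwwp2b had none in any. A start position carries no level and can lie outside a deleted part, so neither gene served as a check of the knockout.

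RNA polymerase II starts transcription outside annotated genes at several kinds of site. Enhancers give short capped RNAs on both strands, promoters also fire in the reverse direction, and upstream promoters missing from an annotation look intergenic until a gene model is extended. PWWP2A and PWWP2B bind nucleosomes marked by H3K36me3 and belong to a histone deacetylase complex with HDAC1/2 and MTA proteins, a variant of NuRD.

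Sequences were read where a dominant TSS lay inside a promoter window of RefSeq, a second annotation, on its strand (mm10). That was the case for 46 of the 1463 E14 clusters (3.14%), so the bases are those of this small subset. The 7 clusters that follow are the widest of those in which the window belonged to the gene that was nearest in GENCODE. They are starts of a kind that 1 annotation holds and the other does not. Each sequence has 30 bases, 5' to 3' on the strand of the cluster, and the capitals mark the base before the dominant TSS of E14 and the TSS itself.

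Fbxo11, chr17:88066031-88066060, minus strand: cggggagggaccgaCAgggcttgagcggag
Zfp869, chr8:69716866-69716895, minus strand: gtcctatccgccgcCAtgctgcagattctg
Cpeb4, chr11:31870897-31870926, plus strand: ttccagctggttgtCAtttcactcggctcg
Gm5724, chr6:141778105-141778134, minus strand: ggcagcagggatttTGtctcaggcttgaag
Gm36298, chr13:62653200-62653229, minus strand: tgtgccttgttcccCCtctctctgttcctt
Prr5, chr15:84663196-84663225, plus strand: tccctcccccaggcTGtccgggctctgcgt
Pik3ca, chr3:32397056-32397085, plus strand: gttcggcccctcctCAgctctcaccctcct

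Of these 7 clusters, 6 had a pyrimidine followed by a purine at the capitals, the step at which polymerase II usually starts, and the cluster at Gm36298 had CC. Fbxo11 encodes an F-box subunit of a ubiquitin ligase, and its cluster lay 754 bp before the GENCODE start with an interquantile width of 57 bp in E14, 68 bp in A1 and 61 bp in C7. This width spans the positions between quantiles 0.1 and 0.9 of a cluster's signal. The dominant TSS of this cluster was 88066045 in E14 and in A1, and 88066014 in C7. Cpeb4 binds cytoplasmic polyadenylation elements of mRNA, and its cluster lay 1299 bp before the start with widths of 29, 35 and 34 bp. Pik3ca encodes the catalytic subunit of a phosphoinositide 3-kinase, and its cluster, 600 bp before the start, was 17 bp wide in every line.

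Over the 46 E14 clusters with a window, 38 had the pyrimidine-purine step (82.6%, 69.3% to 90.9%), beside 82.2% of 8778 annotated promoter clusters inside such windows. The share was 74.5% of 47 clusters in A1 and 75.6% of 45 in C7, inside the E14 interval. The motif TATAA was searched on the strand of the cluster from 40 to 20 bases before the TSS. It was found in 1 of 42 E14 clusters whose window reached that far (2.38%, 0.422% to 12.3%). The share was 2.96% of promoter clusters and 3.51% of all 32851 RefSeq windows. Of 27 E14 clusters over 10 kb from a gene with a window, 17 had the step (63.0%, 44.2% to 78.5%). TATAA was found in 4 of these 27 (14.8%, 5.92% to 32.5%), and both intervals overlapped those near genes. The windows of the 46 clusters had a median GC content of 54.2%, and those of promoter clusters 62.7%. The choice of windows limits these values to starts that RefSeq places near.

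RefSeq gene models covered 343 of the E14 clusters (23.4%, 21.3% to 25.7%), against 12.1% (10.4% to 14.1%) of the 1230 intergenic clusters over 10 kb from a gene. In 132 cases the RefSeq model was that of the nearest gene itself. Of these, 81 lay before the GENCODE start and 31 past the GENCODE end, on the strand of the gene. Another 114 clusters lay in other RefSeq long noncoding RNA genes and 78 in other protein-coding ones. The word intergenic thus held for 1 annotation, and for about 3 in 4 of these clusters it held in both.

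Position relative to the nearest gene was uneven. In E14, 509 clusters (34.8%) lay before the start of the nearest gene on its strand, 268 (18.3%) before the start on the other strand, 415 (28.4%) past the end on its strand and 271 (18.5%) past the end on the other strand. The strand of the nearest gene held 63.2% of the clusters (60.7% to 65.6%) in E14, 63.6% in A1 and 63.4% in C7. Clusters before the start made up 53.1% in E14, 52.6% in A1 and 52.7% in C7, but 47.8% in E14 with windows of 1000 bp and 2000 bp around starts of the same and the other strand. The median distance to the nearest gene was 3551 bp in E14 (quartiles 1518.5 and 6328.5 bp), and the plus and minus strands of the chromosomes were used about equally, with 52.3% on plus.

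The rule leaves unequal room on the 4 sides, since it removes more sequence opposite a start than along it. Clusters were therefore counted per Mb of strand that met the rule. Before gene starts on the strand of the gene, E14 had 7.93 clusters per Mb within 1 kb (exact Poisson interval 6.61 to 9.42), 2.68 from 1 to 2 kb, 2.28 from 2 to 3 kb, 1.72 from 3 to 5 kb and 1.62 from 5 to 10 kb. On the other strand the values from 1 kb onwards were 1.65, 1.20, 1.40 and 1.24, and no sequence within 1 kb met the rule. Past gene ends on the strand of the gene the density over the same 5 bins was 2.25 (1.77 to 2.82), 1.72, 1.45, 2.02 and 1.52, so it did not fall steadily. On the other strand it was 1.25, 0.987, 1.27, 1.07 and 1.21. From 10 to 20 kb all 4 classes had between 0.948 and 1.48 clusters per Mb. The interval of the bin before the start on the strand of the gene, which covers only distances over 500 bp, lay above the intervals of every other bin.

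**Figure D1:**
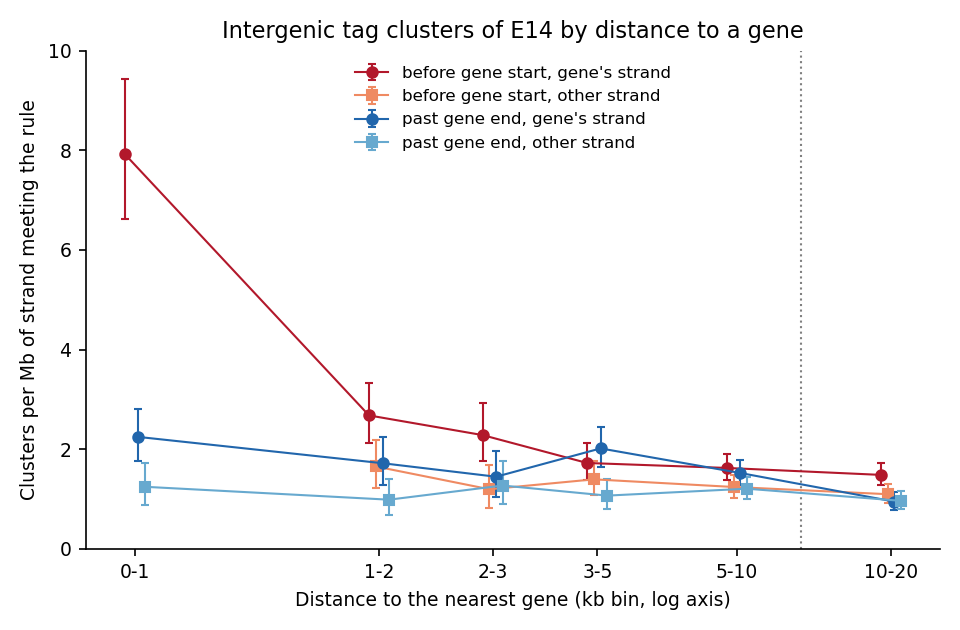
Intergenic clusters of E14 per Mb of strand meeting the rule, against distance to the nearest gene in kb bins on a log axis, with exact 95% Poisson intervals. The bin within 1 kb before the start on the gene's strand stands at 7.93 per Mb, and every other point lies below 3, and the dotted line marks the limit of 10 kb.

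Pooled over the classes, the density was 3.05 clusters per Mb within 1 kb of a gene, 1.40 from 5 to 10 kb and 1.12 from 10 to 20 kb. Within 1 kb the class before the start on the other strand had no sequence. The mix of classes therefore differs between bins, also in the density within 3 kb. The density within 3 kb was above that from 10 to 20 kb on 19 of 20 chromosomes (1 to 19 and X), and above that from 5 to 10 kb on 16. The density from 5 to 10 kb was above that from 10 to 20 kb on 13 of 20. Chromosome Y, which held 14 of the E14 clusters and was not among the 20, had the opposite order, with 0.0659 clusters per Mb within 3 kb, 0.495 from 5 to 10 kb and 1.28007 from 10 to 20 kb. The limit of 10 kb cut through a continuous range, with the farthest member at 9984 bp and the nearest cluster left out at 10003 bp. The members nearest to the other limits lay 501 bp from a start of their own strand and 1004 bp from a start of the other strand.

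The nearest gene was protein-coding for 758 of the 1463 E14 clusters (51.8%, 49.2% to 54.4%), a pseudogene for 323 (22.1%), a long noncoding RNA gene for 281 (19.2%) and a small RNA gene for 71 (4.85%). For clusters over 10 kb away the protein-coding share was 34.2% (31.6% to 36.9%), and protein-coding genes made up 39.6% of all 55413 annotated genes. The clusters were spread over 1000 nearest genes in E14, of which 748 had 1 cluster and 92 had 3 or more.

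The nearest gene had a promoter cluster of its own for 676 of the 1463 E14 clusters (46.2%), against 22.6% of all genes and 27.0% of clusters over 10 kb away. These sets differ in the types of nearest gene, as given above. Of the 758 E14 clusters beside a protein-coding gene, 566 (74.7%, 71.5% to 77.6%) lay beside a gene with a promoter cluster, against 11059 of all 21938 protein-coding genes (50.4%). For clusters over 10 kb away it was 280 of 421 (66.5%, 61.9% to 70.8%). Counting each gene once gave 387 of 547 (70.7%, 66.8% to 74.4%) near genes. Over 10 kb away it gave 176 of 262 (67.2%, 61.3% to 72.6%), with overlapping intervals. By distance the share was 86.8% within 1 kb (79.9% to 91.6%), 82.9% from 1 to 3 kb, 71.9% from 3 to 5 kb and 64.4% from 5 to 10 kb (58.6% to 69.8%). It was 72.6% from 10 to 20 kb (66.2% to 78.1%) and 61.2% from 20 to 50 kb (53.2% to 68.7%), with intervals that overlapped that from 5 to 10 kb. Past the end of a gene on its strand the share was 77.7% of 184, and before the start on its strand 77.2% of 311. On the other strand the shares were 65.8% of 114 past the end and 72.5% of 149 before the start, with intervals that overlapped those of the gene's strand. Long noncoding RNA genes had a promoter cluster for 29.5% of 281 clusters, against 7.29% of all such genes. For clusters over 10 kb away it was 12.7% of 245. For pseudogenes the share was 5.88% of 323 clusters, against 2.45% of all pseudogenes. For small RNA genes it was 9.86% of 71 clusters, against 5.46% of all such genes, and 2 of 48 (4.17%) with each gene counted once.

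**Figure D2:**
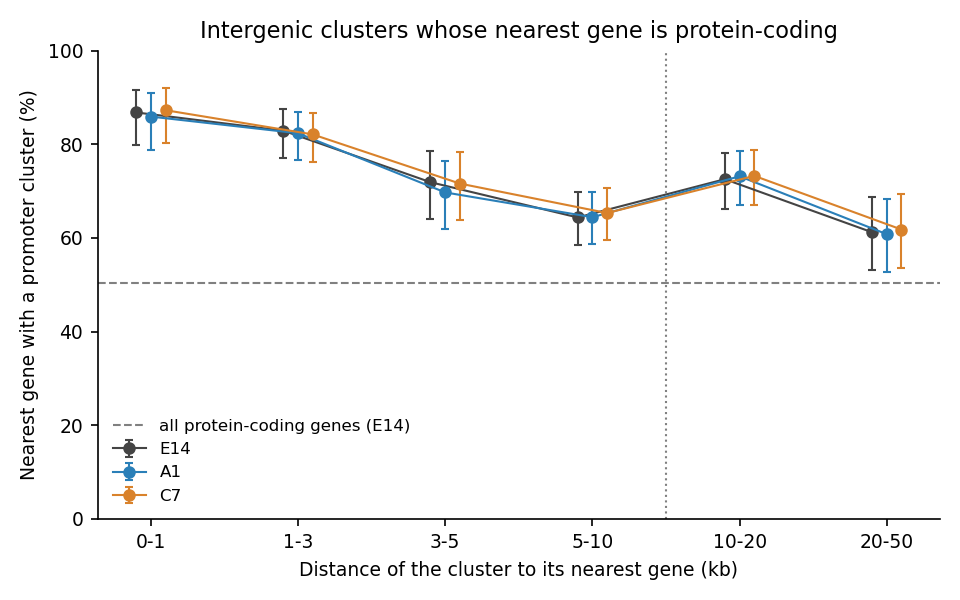
Share of intergenic clusters beside a protein-coding gene whose gene had a promoter cluster, by distance in kb, in E14, A1 and C7, with 95% Wilson intervals. The E14 share goes from 86.8% within 1 kb to 64.4% from 5 to 10 kb, all points lie above the dashed line at 50.4% for all protein-coding genes, and the dotted line marks 10 kb.

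The clusters were narrow. Their interquantile width had a median of 5 bp in each line (quartiles 2 and 14 bp in E14, 90th percentile 27 bp, maximum 127 bp), and 65.6% were at most 10 bp wide. At annotated promoters the median was 20 bp (E14) and 21 bp (each clone). Unannotated divergent starts, which lie within 1000 bp of a gene start on the other strand, stood at 9 bp, clusters inside genes at 4 bp and those over 10 kb from a gene at 5 bp. The median near genes was below that of promoters on 20 of 20 chromosomes in every line, and below that of divergent starts on 19 in E14, 20 in A1 and 18 in C7. Against clusters over 10 kb away it was narrower on 7 chromosomes and wider on 8 in E14, so no order was found. Against clusters inside genes it was wider on 14 and narrower on 4. Width did not fall with distance, the medians being 5 bp within 1 kb, 4 bp from 1 to 5 kb and 5.5 bp from 5 to 10 kb in E14.

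**Figure D3:**
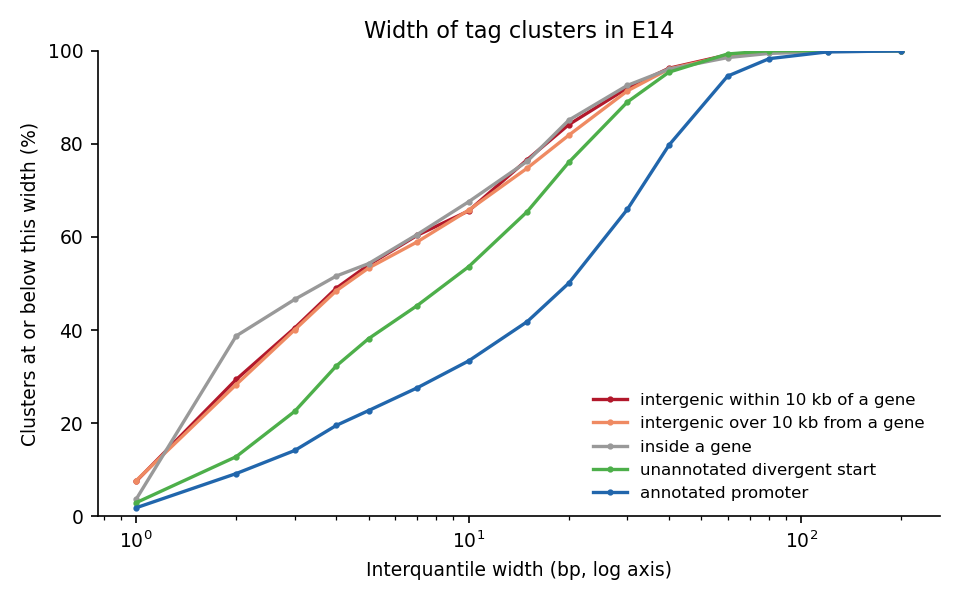
Cumulative share of E14 clusters at or below each interquantile width (bp, log axis), for 5 classes of position. Clusters near genes follow those over 10 kb away, and at 10 bp they have reached 65.6% and promoter clusters 33.4%, while at 2 bp clusters inside genes stand at 38.7% and those near genes at 29.4%.

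The 5 widest clusters in E14 lay near Gm11668, 2410003I16Rik, Cox7c, Atf1 and Cyp2j7-ps1. At the pseudogene Gm11668 the cluster chr11:109011953-109012118, on the minus strand and 3293 bp past the end on the other strand, was 127 bp wide with the dominant TSS 109012074 in every line. The cluster before the noncoding gene 2410003I16Rik was 95 bp wide in each line. Its dominant TSS moved from 94010939 in E14, 502 bp before the start, to 94010967 in A1 and 94010970 in C7. The positions in the clones lie within the 500 bp window of that start, so the cluster met the rule only in E14. Cox7c encodes a subunit of cytochrome c oxidase, and the cluster 7318 bp before its start had widths of 90, 88 and 88 bp in E14, A1 and C7. Atf1 encodes a transcription factor of the CREB family, and the cluster 8884 bp past its end measured 89 bp in E14, 95 bp in A1 and 118 bp in C7. That at Cyp2j7-ps1, a pseudogene, measured 79, 78 and 76 bp.

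Many of the clusters stood together. With clusters joined when their dominant TSSs were within 1 kb on either strand, E14 had 1103 groups, of which 898 held 1 cluster and 205 held 2 or more. These 205 took in 565 clusters (38.6%, 36.2% to 41.1%), and 87 of them had both strands. Over 10 kb from a gene 38.9% of clusters were in such groups, inside that interval. The largest group near genes had 14 clusters.

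That group lay past the end of Rif1, a gene with roles in replication timing and DNA repair, at chr2:52127812-52129281. On the plus strand, that of Rif1, it held 11 clusters, and on the other strand 3, from 5448 to 6897 bp past the annotated end, and all 14 were present in every line. The 5 clusters closest to the gene were 15 to 20 bp wide in E14, and so was the minus-strand cluster at 52128522 (16 bp), while the other 8 were 1 to 4 bp wide. In 3 of the wider clusters the dominant TSS of E14 (52127989, 52128031 and 52128321) was replaced in both clones by the position at the other end of the cluster (52128005, 52128049 and 52128307). Rif1 also had 4 clusters before its start, 1 of them on the other strand. The gene had 18 clusters in E14 and A1 and 17 in C7, the most of any nearest gene in each line at the limit of 10 kb (4 in E14 at 5 kb, where 2410080I02Rik had 11), and the cluster at chr2:52071477-52071487 was the one absent from C7.

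**Figure D4:**
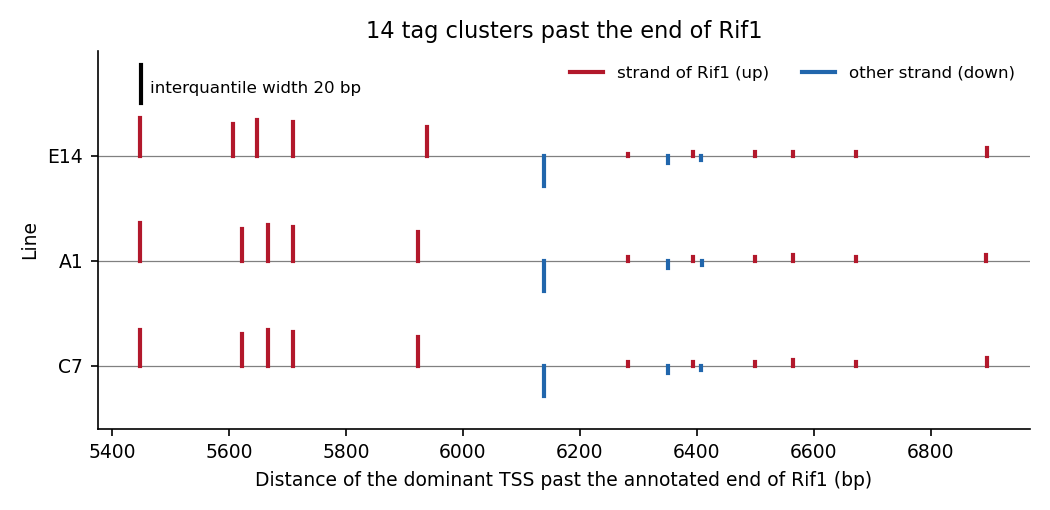
The 14 clusters past the end of Rif1 in each line, by distance of the dominant TSS from the annotated end (bp), with bar height giving the interquantile width (scale bar 20 bp), up for the strand of Rif1 and down for the other. All 14 are present in E14, A1 and C7, and the 5 nearest to the gene are among the widest.

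After Rif1 the nearest genes with most clusters in E14 were 2410080I02Rik with 11 (11 in A1 and 10 in C7), Gm10033, Gm22150 and Gm44734 with 8 each, Gm11668, Gm28502 and Mid1-ps1 with 7 each, and AC158763.1 and D630011A20Rik with 6 each. Of these 10 genes only Rif1 codes for a protein, and only Rif1, 2410080I02Rik and Gm10033 had a promoter cluster of their own, in each line. At the noncoding gene 2410080I02Rik, chr19:23134900-23135717 on the plus strand, 6 clusters lay within 603 to 772 bp before the start on its strand and 5 lay 458 to 870 bp past the end on the other strand. The cluster at 23134297 fell in a RefSeq window of the same gene and reads as follows, with the capitals as above.

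2410080I02Rik, chr19:23134282-23134311, plus strand: aggcagaagggaggCAgtcccgggtgatgg

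A pair of groups was chosen after their values were seen. The 8 clusters assigned to the small nucleolar RNA gene Gm22150 lay between 48948 and 52564 bp past the end of Klf4, which encodes a pluripotency transcription factor, on chromosome 4. Of the 8, 6 were on the plus strand, all were 4 to 19 bp wide in E14, and all were present in each line. At Mir290a, the first hairpin of a microRNA cluster that is abundant in mouse embryonic stem cells, 6 clusters lay 1059 to 6901 bp before the hairpin, 4 of them on the other strand, and the widest was 21 bp in E14. The link of any of these clusters to Klf4 or Mir290a was not tested.

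Several pluripotency genes had intergenic clusters beside them. Of 29 listed, 8 were the nearest gene of a cluster in E14 (27.6%), against 547 of all 21938 protein-coding genes (2.49%) and 387 of the 11059 with a promoter cluster (3.50%). The 29 genes all had a promoter cluster in each line. The list was drawn up with results of these data known, and no test was run on it. There were 17 such clusters in each line. Lefty2, a secreted inhibitor of Nodal signalling, had 3, of which the one 7553 bp before its start on the other strand was 55 bp wide in E14, 56 in A1 and 55 in C7. Sall1, a zinc finger transcription factor, had 3, and 2 of them, on opposite strands at 8862 and 9053 bp before its start, were 34 and 36 bp wide in E14. Dppa5a had 3 clusters, Fbxo15 had 2, and Mycn and Prdm14 had 1 each, the same number in each line. Zfp42, whose product REX1 marks the naive stem cell state, had 3 in E14 and 4 in each clone, and Tdgf1, a co-receptor of Nodal, had 1 in E14 and none in the clones. None of the 15 genes of the PWWP2 complex and NuRD was the nearest gene of a cluster in any line, and 14 of them had a promoter cluster. Of 15 lineage genes 0 were the nearest gene and 3 had a promoter cluster in each line. With 3.50% of protein-coding genes with a promoter cluster having an intergenic one beside them, counts of 0 in lists this short are near that share.

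Divergent pairs were then counted. A partner, that is, a cluster of the other strand whose dominant TSS lay at most 500 bp upstream, was found for 173 E14 clusters (11.8%, 10.3% to 13.6%), for 171 in A1 (11.5%) and for 178 in C7 (12.3%). The share over 10 kb from a gene was 11.8%, and inside genes 13.6% (12.9% to 14.3%), an interval that overlapped that near genes. It was 21.7% at annotated promoters and 85.7% at unannotated divergent starts, which the rule places opposite a gene start. The rule keeps clusters near genes over 1000 bp from starts of the other strand. A promoter cluster within 500 bp of such a start could therefore not be a partner within 500 bp. The count of 0 of the 173 with an annotated promoter as partner was thus fixed in advance. The lower share against promoters is in part set by the rule. The median gap between paired TSSs was 198 bp. For 161 of these 173 clusters the partner was an intergenic cluster near a gene as well, so most pairs were counted from both sides. Paired clusters had a median width of 8 bp (5 to 11) and unpaired ones 5 bp (4 to 5). The share was 10.0% before the start on the gene's strand and 14.6% on the other strand, with overlapping intervals.

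To ask whether loss of PWWP2A/B changed which of these starts were used, clusters were compared between lines by overlap of at least 1 bp on the same strand. Over the 3 lines there were 1513 distinct clusters, of which 1418 (93.7%, 92.4% to 94.8%) were present in all lines. The start and end of the cluster were the same in all lines for 1393 of the 1418 (98.2%), and the dominant TSS for 884 (62.3%, 59.8% to 64.8%), against 69.6% of promoter clusters and 66.2% (63.4% to 68.8%) of those over 10 kb from a gene. Presence in all lines was 97.4% (97.2% to 97.5%) over all clusters outside the mitochondrial genome. It was 91.8% over 10 kb from a gene, 96.3% inside genes and 98.6% at annotated promoters. The study describes consensus peaks formed across replicates, and the part of such processing in the shared bounds and presence was not tested.

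The clones did not move alike against E14. In A1, 44 clusters were absent from E14 (2.97%, against 1.11% of all A1 clusters), and 23 of E14 were absent from A1 (1.57%, against 0.712% of all E14 clusters). In C7, 16 were absent from E14 (1.11%, against 0.775%), and 34 of E14 were absent from C7 (2.32%, against 0.751%). So A1 had more clusters gained than lost and C7 more lost than gained, and the comparisons share the E14 track. Between the clones 56 of A1 were absent from C7 (3.78%, against 1.18% of all A1 clusters), more than the 44 absent from E14, and 17 of C7 were absent from A1 (1.18%, against 0.806% of all C7 clusters). Both clones had 10 clusters that E14 lacked (0.675% of those in A1, against 0.447% of all A1 clusters), and E14 alone had 12 (0.82%, against 0.232% of all E14 clusters). With clusters under 3 bp left out of each line these counts were 25 and 3, so the direction turned. A cluster under 3 bp in 1 line then counts as absent there, and all 12 of E14 alone were 1 bp wide. The counts of 25 and 3 thus do not separate a cluster gained or lost from a change in width. Of the 1513 distinct clusters, another 34 were found in A1 alone (2.25%, against 0.653% of all distinct clusters) and 6 in C7 alone (0.397%, against 0.322%). A further 22 were found in E14 and A1 (1.45%, against 0.512%) and 11 in E14 and C7 (0.727%, against 0.473%). For clusters over 10 kb away the share absent had an interval that overlapped that of clusters near genes in each of the 4 comparisons with E14.

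**Figure D5:**
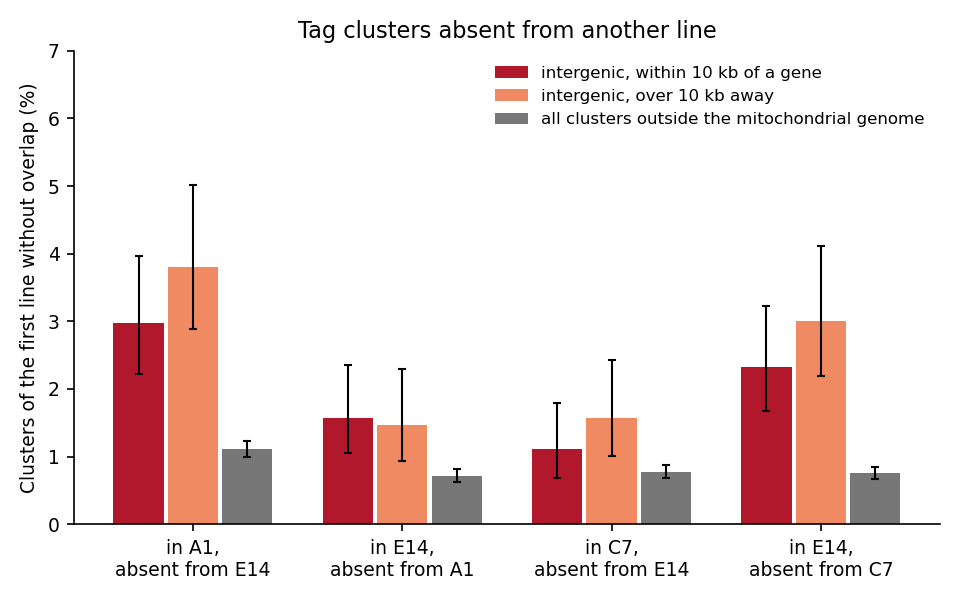
Share of clusters without an overlapping cluster in the other line, for the 4 comparisons of a clone with E14 and for intergenic clusters within 10 kb of a gene, those over 10 kb away and all clusters outside the mitochondrial genome, with 95% Wilson intervals. Near genes the shares are 2.97% for A1 clusters absent from E14, 1.57% for E14 clusters absent from A1, 1.11% for C7 clusters absent from E14 and 2.32% for E14 clusters absent from C7.

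Clusters found in a single line were of the smallest size. All 52 of them near genes, 12 in E14, 34 in A1 and 6 in C7, were 1 bp wide, whereas 79 of the 1418 present in all lines were (5.57%, 4.49% to 6.89%). Over all positions 382 of 400 single-line clusters were 1 bp wide, so this held for clusters in general. Of the 10 clusters shared by the clones and absent from E14, 5 were 1 bp wide.

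The 5 widest of these 10 lay near 4 genes. Fblim1 encodes a filamin-binding protein of cell adhesions. The cluster chr4:141572077-141572092, 3970 bp past its end on its strand, was 16 bp wide in both clones, and chr4:141566491-141566495, 9571 bp past its end on the other strand, was 5 bp wide. At Nupr1l a cluster 1979 bp past the end was 7 bp wide in both clones. At Pds5a, which encodes a regulator of cohesin, a cluster 7156 bp before the start was 4 bp wide. The additional Zfp42 cluster, 2078 bp past the end, was 2 bp wide. The other 5 were single positions near Gm16079, Olfr478, Hspa8, Impa2 and Gm29650. The 12 clusters of E14 alone were single positions, and the first 5 in chromosome order lay near Gm14235, Toporsl, Ksr2, Gm28424 and Tdgf1.

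At Hspa8, which encodes the constitutive chaperone HSC70 and was chosen after its values were seen, 6 E14 clusters lay 860 to 6789 bp before the start, and the clones had these 6 and the single position at 40799331. The cluster chr9:40794554-40794589 was 4 bp wide in E14, 21 bp in A1 and 36 bp in C7, and its dominant TSS, 40794554 in E14 and A1, was 40794557 in C7. The other 5 had the same width in every line. Among them, 40799294-40799302 and 40799362-40799366 lie on either side of the single position at 40799331.

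Among clusters shared between 2 lines, position moved more often than presence. The dominant TSS differed in A1 for 378 of 1440 E14 clusters (26.2%, against 23.8% of all shared clusters) and in C7 for 325 of 1429 (22.7%, against 21.2%). Where it differed, the median shift was 4 bp. The dominant TSS was the same in A1 for 73.75% near genes, 72.7% inside genes and 76.2% over 10 kb away. In C7 these shares were 77.3%, 76.0% and 78.2%, so such shifts were not particular to clusters near genes. In A1 192 clusters were wider than in E14 (13.3%, against 20.3%) and 88 narrower (6.11%, against 10.5%). In C7 163 were wider (11.4%, against 18.5%) and 128 narrower (8.96%, against 10.6%). Of all E14 clusters 60.3% were at annotated promoters. Clusters inside genes were wider in 11.3% and narrower in 6.42% of cases in A1, and wider in 9.59% and narrower in 6.73% in C7. Over 10 kb from a gene these shares were 15.7% and 7.01% in A1 and 12.8% and 10.1% in C7, so low shares of width changes were not particular to clusters near genes.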

How the data were processed

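CAGE-seq was run on nuclear RNA of 8 libraries. The authors used STAR 2.4.2a for alignment to mm10, retaining unique hits (repeated sequence is therefore covered less), pooled the replicates of a line, applied a power-law normalization and defined clusters in CAGEr 1.28.0. Deposited positions, which are the start, end, dominant TSS and interquantile blocks of each cluster, were used, and the deposited score is 0 for every cluster. The signal a cluster had to reach is not given in the sources used here. Depth is not given in the deposited clusters.

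Positions were converted to start at 1. At annotated promoters 82.2% of the positions so read had a pyrimidine-purine step, against 14.2% and 17.8% when shifted by 2 bp to either side. Shifts by 1 bp gave 1.63% and 2.99%, but a step at 1 position bars a step at the next, so these follow in part from the 82.2%. Classes came from GENCODE M21. Shares have 95% Wilson intervals, densities exact Poisson intervals and medians order-statistic intervals. Clusters and lines were not treated as replicates, so no p-value was calculated. Python 3.11.15, NumPy 2.4.6, SciPy 1.17.1 and Matplotlib 3.10.9 were used. On simulated clusters 2000 of 2000 classes, 1022 of 1022 nearest genes, 1000 of 1000 overlaps and 1000 of 1000 pairs were recovered. RefSeq gene models and promoter windows (250 bases before to 50 after a start) of the same assembly gave the sequences.

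Members, lists and tests were chosen with earlier results of these data known. Named genes are the 10 nearest genes with most clusters in E14, the 5 widest clusters of E14, the 5 widest found in both clones and not in E14, the 5 widest of E14 alone (ties in chromosome order), and listed genes that are nearest to a cluster. The genes shown first with sequences fall outside these rules. They were taken by width among clusters with a RefSeq window of the nearest gene. Other names were added after their values were seen, as stated beside them or, for the remaining single positions of the clones, to complete a count.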

Additional observations from a re-analysis of the deposited data

Results flagged for a closer look

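The number of intergenic clusters near genes moved in opposite directions in the clones. Clone A1 had 19 more than E14 (1482 against 1463) and clone C7 had a difference of -21 (1442 against 1463). All clusters numbered 33005 in A1, 32870 in C7 and 32857 in E14. The shares near genes were 4.49%, 4.39% and 4.45% in that order, with intervals that overlapped. Each line is 1 merged track, so the difference between the clones was not tested. Of the clusters found in A1 alone, all 34 were 1 bp wide.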

How the results depend on the processing

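Of the values that answer a comparison, 106 recomputed under an alternative stayed within their intervals or within 1.5 times the count, and 51 moved. In the order E14, A1 and C7, a distance limit of 5 kb left 933, 944 and 921 clusters. The share before the gene start became 60.4%, 59.9% and 60.1% with windows of 200 bp and 500 bp to the starts of the same and the other strand, 47.8%, 47.1% and 47.2% with windows of 1000 bp and 2000 bp, and 56.1%, 56.1% and 55.7% for widths of at least 3 bp. The side with more clusters therefore depended on the windows. The share on the strand of the gene became 65.9%, 66.2% and 66.0% with the narrower windows and 67.1%, 67.8% and 67.3% with 5 kb, and with 20 kb 61.1% in A1 and 60.8% in C7. The median width was 10, 10 and 9.5 bp for widths of at least 3 bp, 6 bp in each line over whole clusters, and 6 bp in A1 and 6 bp in C7 with the narrower windows. Divergent partners were found for 7.72%, 7.49% and 7.91% within 250 bp and for 14.56%, 14.04% and 14.98% within 1000 bp. The share of clusters beside a protein-coding gene that has a promoter cluster was 80.6%, 79.4% and 80.2% with 5 kb and 71.4%, 70.7% and 71.5% with promoter clusters within 100 bp.

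Between lines, gained and lost clusters numbered 44 and 23 for clone A1 alone and 16 and 34 for clone C7 alone. For widths of at least 3 bp they numbered 25 gained and 3 lost in both clones, against 10 and 12 without that limit, since a cluster under 3 bp in 1 line then counts as absent there. With windows of 1000 bp and 2000 bp they numbered 10 and 9, so the direction of this difference turned in both cases. For widths of at least 3 bp 96.6% of E14 and 95.1% of A1 clusters were shared with C7. When sharing also required an equal dominant TSS, the values were 72.6% (E14 in A1), 75.5% (E14 in C7) and 69.3% (A1 in C7). Of the E14 counts of named genes 10 moved. With 5 kb Rif1 had 4 in place of 18 and Sall1 1 in place of 3, while Gm22150, Gm28502, Mid1-ps1, AC158763.1, D630011A20Rik and Prdm14 had 0. With 20 kb Mid1-ps1 had 54 in place of 7 and Zfp42 6 in place of 3.

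No paired analysis was possible because each track merges the libraries of a line, and leaving out a replicate could not be run for the same reason. The pyrimidine-purine share over all members and the repeat-masked share were not run, since no genome sequence was used here and RefSeq windows held only 46 of 1463 members, under the 80% set for such a check.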
